A study of Mus musculus with 6 samples.

Results

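Inhibitory and paired receptors of myeloid cells are surface proteins that set how strongly a neutrophil, monocyte or macrophage responds to an activating signal. The 9 genes described here are Cd300a, Cd300lb, Cd300ld and Cd300lf of the CD300 family, Pirb and Lilrb4a of the PIR and LILR family, Sirpa of the SIRP family, and Cd33 and Siglece of the sialic acid-binding Siglec family. They were listed by gene symbol, with earlier results of these data known, and are 9 of the 38739 genes in the table. All 9 were above 0 in at least 1 sample.

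The study compared peritoneal neutrophils from cGAS-/- mice on a C57B/L6 background that were kept for 2 hours with media control (untreated, n = 3) or with Escherichia coli lipopolysaccharide (LPS, n = 3), in order to describe the transcriptional response to LPS of neutrophils that lack cGAS, the cytosolic DNA sensor. Every sample of both groups carries the cGAS deletion, and no wild-type neutrophils are among these samples. The labels give 500 ng/mL as the LPS dose, whereas the methods of the study give a lower dose for RNA sequencing. The cells were elicited by an intraperitoneal thioglycolate injection and taken by lavage without a sorting step being named. The labels do not give the ages of the mice, whereas the methods of the study name male mice and state an age for the study as a whole. Whether the 3 samples of a group came from separate mice is not given by the labels, so p-values measure only the spread between these samples.

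An inhibitory receptor of this kind carries in its cytoplasmic tail 1 or more immunoreceptor tyrosine-based inhibition motifs (ITIM). When Src-family kinases phosphorylate the motif's tyrosine, it recruits the phosphatases SHP-1 and SHP-2, encoded by Ptpn6 and Ptpn11, which dampen kinase signalling. Paired receptors are close relatives with a similar outer part but opposite tails. The activating partner has a short tail without an ITIM and, through a charged residue in its membrane span, joins an adaptor such as DAP12, encoded by Tyrobp, or the Fc receptor gamma chain, encoded by Fcer1g.

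In the coding sequences of the GENCODE M39 annotation of GRCm39, 6 of the 9 receptors hold an ITIM after their membrane span and 3 do not. The motif searched was isoleucine, leucine, valine or serine, then any residue, tyrosine, any pair of residues, and isoleucine, leucine or valine. Pirb and Sirpa hold 3 matches each, Cd300a, Cd300lf and Lilrb4a hold 2 each, and Siglece holds 1. Cd300lb, Cd300ld and Cd33 hold 0. The motif is short, and 38.9% of the 7264 mouse proteins with a hydrophobic window of this kind hold a match after it, so a match is a description of the sequence and not evidence of function. Cd300lb and Cd33 have 1 basic residue inside the hydrophobic window and Cd300ld has 1 acidic residue there, whereas the 6 receptors with an ITIM have 0 charged residues in it.

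The coding bases of 1 ITIM of each of the 6 receptors are printed here 5′ to 3′ on the coding strand, because the receptors are grouped by this motif below. The tyrosine codon is in capitals. All 6 stretches are exonic and protein-coding in GRCm39: chr11:114790672-114790689 in exon 6 of 7 of Cd300a on the plus strand, chr11:115008474-115008491 in exon 6 of 7 of Cd300lf on the minus strand, chr10:51372290-51372307 in exon 9 of 9 of Lilrb4a on the plus strand, chr7:3715785-3715802 in exon 15 of 15 of Pirb on the minus strand, chr7:43301009-43301026 in exon 7 of 7 of Siglece on the minus strand, and chr2:129471874-129471891 in exon 8 of 8 of Sirpa on the plus strand.
Cd300a: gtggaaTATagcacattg
Cd300lf: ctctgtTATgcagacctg
Lilrb4a: gtaaccTATgcccagttg
Pirb: gtgaccTATgcccagctg
Siglece: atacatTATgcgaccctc
Sirpa: atcacaTACgcagacctg

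The 3 receptors without the motif lie at chr11:114813607-114825212 (Cd300lb), chr11:114873099-114880748 (Cd300ld) and chr7:43173634-43193875 (Cd33), all on the minus strand. The 4 CD300 receptors are neighbours on chromosome 11, and Cd33 and Siglece are neighbours on chromosome 7.

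Values are scaled TPM, TPM values (transcript abundance per length and library) divided by a factor per sample, so they are per length of transcript and have no read depth attached. The sum over all genes in the table was 603599 to 713384 in the untreated and 404675 to 465904 in the LPS samples. Protein-coding genes took 21.6% to 29.0% of that sum in the untreated and 50.6% to 59.99% in the LPS samples, and pseudogenes took 64.7% to 70.7% and 32.3% to 40.5%. This shift moves with the treatment, and its part in the results below was not tested. Each value was therefore also computed after scaling every sample to the same sum over protein-coding genes, which moved the median log2 fold change of the genes with a mean of at least 1 from 0.13 to -0.22. Cgas was at 0.203, 0.307 and 0.180 in the untreated and 0.184, 0.0713 and 0.0286 in the LPS samples. In RNA from bulk cells, fewer cells of a type and less RNA per cell cannot be told apart.

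None of the 9 receptors passed the limits of the study for the change after LPS, an unadjusted p under 0.01 with a log2 fold change beyond 2, in limma's moderated test on log2(scaled TPM + 1), and none reached an adjusted p of 0.05 in either direction. Over all 23049 genes tested, 1.69% were called higher and 1.31% lower at those limits, and the adjusted p of 0.05 was passed by 0.894% in the higher and 0.946% in the lower direction. Among the 4238 genes with a mean of at least 5, the range in which all 9 receptors lie, the shares were 6.58% higher and 6.49% lower at the limits, and 2.97% and 4.74% by adjusted p. At an unadjusted p under 0.05, 1 receptor was higher (Siglece) and 1 was lower (Cd300ld), against 10.3% and 6.66% of all genes tested and 18.4% and 18.8% of the genes with a mean of at least 5. The LPS samples did not overlap the untreated samples for 1 receptor of the 9, Cd300ld, where they were lower. Over all genes tested 22.9% did not overlap, 9.75% being lower, and of the 4238 genes 41.5% did not overlap. The median log2 fold change of the 9 receptors was 0.18, and that of the 4238 genes was 0.17.

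**Figure D1:**
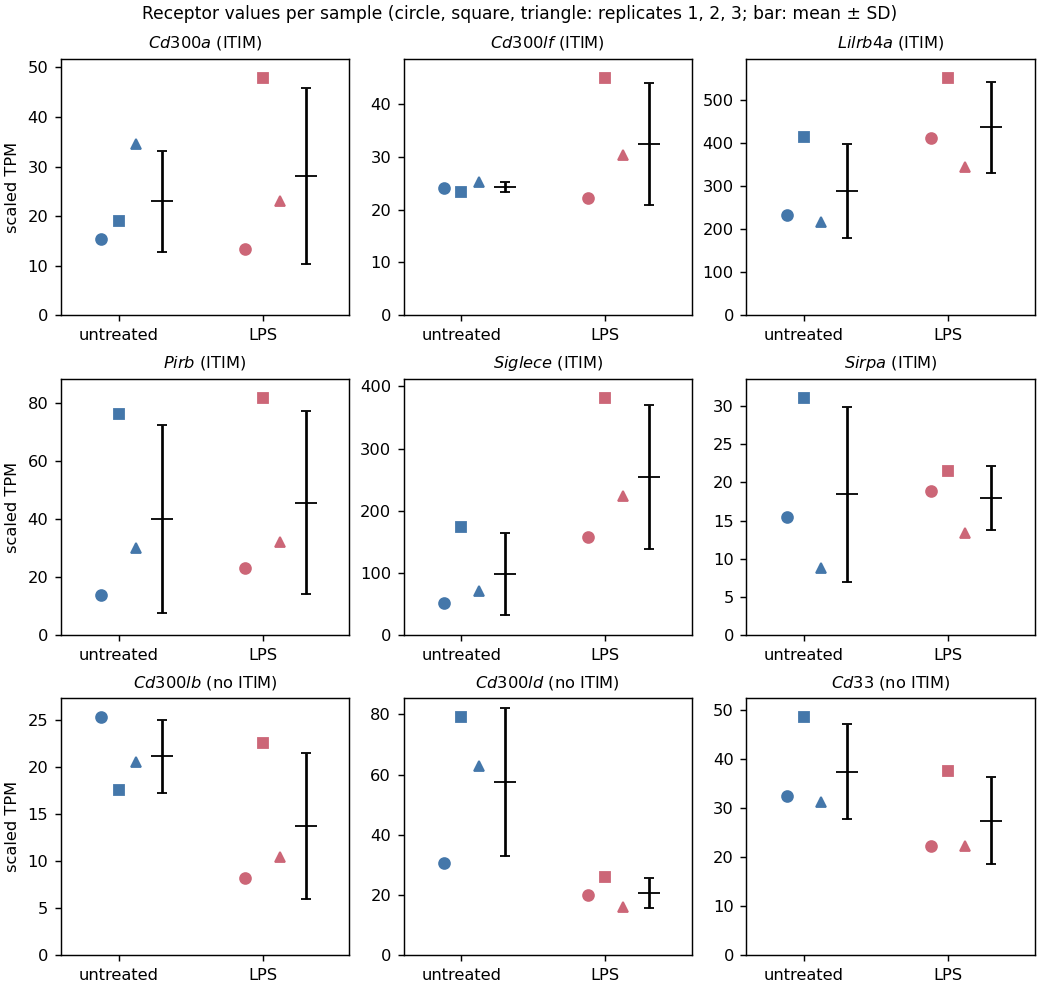
Scaled TPM of the 9 receptors (y axis, each panel on its own linear scale from 0) in the 3 untreated and 3 LPS samples (x axis). Circles, squares and triangles are replicates 1, 2 and 3, the bars are the mean ± SD, and only Cd300ld has its groups apart, with 15.9 to 25.9 after LPS against 30.6 to 79.1 untreated.

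Among the receptors with an ITIM, Siglece differed most between the groups. Siglece binds sialic acids and is found on mouse neutrophils and macrophages. Its values were 52.5, 174 and 70.6 in the untreated and 157, 382 and 224 in the LPS samples. Untreated replicate 2 was above LPS replicate 1, so the groups overlapped by that pair of samples. The mean was 99.1 ± 65.5 untreated and 254 ± 115 after LPS (SD, n = 3 each), a log2 fold change of 1.45 (SE 0.57, 95% interval 0.07 to 2.83), with an adjusted p of 0.271 in limma. Of the 31-base words in the Siglece transcripts, 37.4% also occur in those of Ceacam18, a gene that overlaps it on the opposite strand, and whether the quantification used strand is not given in the sources used here.

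Lilrb4a, an integrin-binding inhibitory receptor of myeloid and mast cells, had the highest scaled TPM of the 9 in every sample. Its values were 233, 414 and 218 untreated and 412, 553 and 346 after LPS. The lowest LPS sample lay under the highest untreated sample. The mean went from 288 ± 109 to 437 ± 106 (SD, n = 3 each), with a log2 fold change of 0.63 (SE 0.37, 95% interval -0.28 to 1.54) and an adjusted p of 0.450 in limma.

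Pirb is the inhibitory receptor for MHC class I of mouse myeloid and B cells. It had 14.0, 76.1 and 29.9 untreated and 23.3, 81.8 and 32.1 after LPS. Replicate 2 stood well above the other two samples in each group, and the groups overlapped throughout. The log2 fold change was 0.30 with an SE of 0.74 and an adjusted p of 0.839 in limma, and its 95% interval from -1.52 to 2.11 leaves room for a change of more than a doubling either way.

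The CD300 receptors with an ITIM, Cd300a and Cd300lf, bind phospholipids exposed on dying cells. Cd300a had 15.4, 19.1 and 34.6 untreated and 13.4, 47.9 and 23.0 after LPS. Both the lowest and the highest of the 6 values were LPS samples, and the log2 fold change was 0.18 (SE 0.55, adjusted p = 0.875 in limma). Cd300lf had 24.0, 23.4 and 25.2 untreated, the tightest group among the 9 receptors, and 22.1, 44.9 and 30.2 after LPS. LPS samples of Cd300lf lay on both sides of the untreated ones, with a log2 fold change of 0.35 (SE 0.34, adjusted p = 0.584 in limma).

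Sirpa binds CD47 and restrains the uptake of cells that display it. It was at 15.5, 31.1 and 8.83 untreated and 18.9, 21.6 and 13.4 after LPS. All 3 LPS samples fell inside the untreated range. The log2 fold change was 0.10, with an SE of 0.50 and a 95% interval from -1.11 to 1.32 (adjusted p = 0.923 in limma). The mean was 18.5 ± 11.4 untreated and 17.9 ± 4.15 after LPS (SD, n = 3 each), so the positive sign of Sirpa holds only on the log scale.

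Of the receptors without an ITIM, Cd300ld had the largest difference and was the receptor whose groups did not overlap. Cd300ld is an activating member that signals with the Fc receptor gamma chain. It had 30.6, 79.1 and 62.7 untreated and 20.0, 25.9 and 15.9 after LPS. Every LPS sample was under every untreated sample, with a gap from 25.9 to 30.6. The mean was 57.5 ± 24.7 untreated and 20.6 ± 5.04 after LPS (SD, n = 3 each), a log2 fold change of -1.36 (SE 0.44, 95% interval -2.43 to -0.29), with an adjusted p of 0.188 in limma. Of the genes with a mean of at least 5, 20.4% had their LPS samples apart and lower in the same way.

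Cd300lb, an activating member that signals with DAP12, had 25.3, 17.6 and 20.5 untreated and 8.23, 22.6 and 10.4 after LPS. LPS replicate 2 lay within the untreated range and the other two LPS samples lay under it. The log2 fold change was -0.70 (SE 0.43, 95% interval -1.75 to 0.36, adjusted p = 0.479 in limma). Cd33, which in mice differs from its human counterpart by lacking the inhibitory motif, had 32.4, 48.5 and 31.2 untreated and 22.2, 37.6 and 22.3 after LPS. Again LPS replicate 2 overlapped the untreated samples while replicates 1 and 3 lay under all of them, and the log2 fold change was -0.45 (SE 0.35, 95% interval -1.31 to 0.41, adjusted p = 0.551 in limma).

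**Figure D2:**
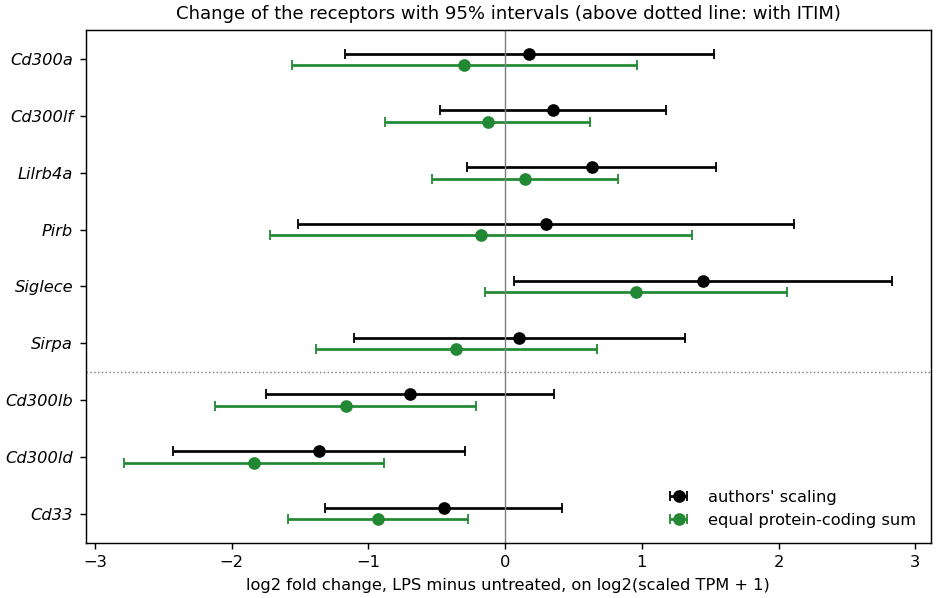
log2 fold change of the 9 receptors, LPS minus untreated on log2(scaled TPM + 1), with 95% intervals from limma, for the deposited values and after scaling to an equal protein-coding sum. On the deposited values the 6 receptors with an ITIM lie to the right of 0 and the 3 without to the left, and on the equal protein-coding sum only Lilrb4a and Siglece stay to the right.

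The estimates were positive for 6 receptors and negative for 3, and these were the 6 with and the 3 without an ITIM, although none of the 9 passed the adjusted test and 4 of the 6 positive estimates (Cd300a, Cd300lf, Pirb and Sirpa) turned negative on an equal protein-coding sum. The division by motif was made from the sequences, but with the values known, and it is given as a description. A difference between receptors within a sample does not move with that sample's scaling, apart from the added 1. The mean log2(scaled TPM + 1) of the receptors with an ITIM exceeded that of the receptors without by 0.12, 0.67 and 0.20 in the untreated and by 1.504, 1.75 and 1.74 in the LPS samples. All 3 LPS samples were above all 3 untreated samples. This gap restates the signs of the estimates on the same 9 genes and is no separate evidence of the split. The 4 CD300 receptors share a gene cluster and some sequence, so the 9 are not independent of each other.

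Of the 36 ratios between any pair of the 9 receptors, 15 did not overlap between the groups, a share near the background, since 40.2% of all pairs of the 3761 genes with a mean of at least 5 and above 0 in every sample did not overlap either. The 15 were 12 of the 18 ratios of a receptor with an ITIM to one without, and 3 of the 18 other ratios, which restates the signs of the estimates above on the same 9 genes and is no separate evidence of the split. The ratios named next are examples picked from these 15. Siglece over Cd33, the neighbouring Siglec genes, was 1.62, 3.59 and 2.26 untreated and 7.09, 10.1 and 10.0 after LPS. Cd300lf over Cd300ld was 0.784, 0.296 and 0.402 untreated and 1.10, 1.73 and 1.905 after LPS. The values appear to be means over the transcripts of a gene, and Cd300lf has 13 annotated transcripts whereas Cd300ld has 1. This ratio therefore describes the change between the groups and does not show which gene was the more abundant. Lilrb4a over Cd33 was 7.19, 8.54 and 6.99 untreated and 18.6, 14.7 and 15.5 after LPS.

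**Figure D3:**
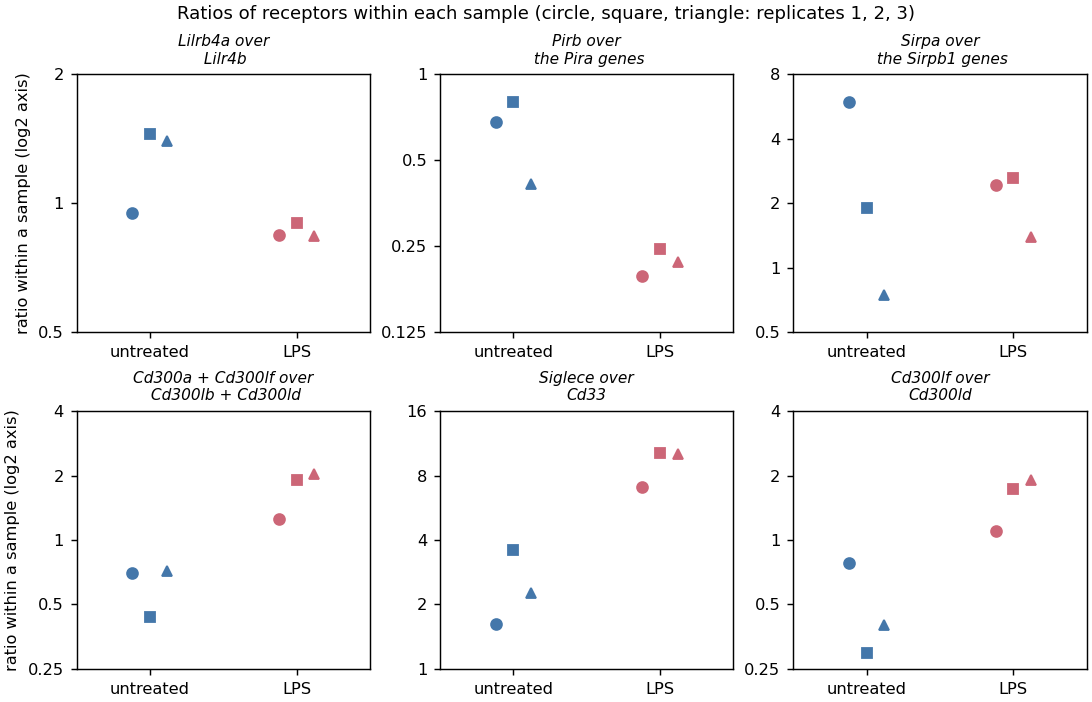
Ratios of scaled TPM within each sample (log axis) for the 3 untreated and 3 LPS samples, as named above each panel. LPS samples lie apart from untreated samples in each panel but Sirpa over the Sirpb1 genes, where the values are 0.749 to 5.95 untreated and 1.40 to 2.62 after LPS. The panels of Siglece over Cd33 and Cd300lf over Cd300ld are examples picked from the 15 of 36 ratios that did not overlap. Of all gene pairs with a mean of at least 5, 40.2% did not overlap.

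The balance between an inhibitory receptor and its close relatives was compared as 4 ratios within samples. Each had an exact two-sided permutation test over the 6 samples, in which 3 against 3 cannot give a p under 0.10. As background, 40.2% of the ratios between single genes with a mean of at least 5 did not overlap between the groups. The summed Cd300a and Cd300lf over the summed Cd300lb and Cd300ld were 0.704, 0.439 and 0.718 untreated and 1.26, 1.91 and 2.03 after LPS. The LPS ratios were all higher, by 1.46 on the log2 scale (exact p = 0.1, Benjamini-Hochberg adjusted over the 4 ratios 0.133). Of the 4 receptors in this ratio, Cd300ld alone had groups that did not overlap.

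For Pirb and Lilrb4a the ratio to their close relatives was lower in every LPS sample, beside the 40.2% of gene-pair ratios that did not overlap in either direction. Pirb over the summed Pira genes, its activating relatives that signal with the Fc receptor gamma chain, was 0.680, 0.799 and 0.414 untreated and 0.197, 0.244 and 0.220 after LPS. The log2 difference was -1.46 (exact p = 0.1, adjusted 0.133). The summed Pira genes stood at 20.5, 95.3 and 72.3 untreated and 118, 336 and 146 after LPS. Of the 31-base words of the Pirb transcripts, 45.1% occur in other genes, 22.7% in Pira12, so how reads were divided between Pirb and the Pira genes is uncertain.

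Lilrb4a and its neighbour Lilr4b, the gene now named Lilrb4b whose tail holds 0 ITIM matches, had near equal scaled TPM. The hydrophobic window of Lilrb4b holds 0 basic and 0 acidic residues, so the charged residue of an activating partner was not found there. Lilrb4a over Lilr4b was 0.952, 1.45 and 1.40 untreated and 0.842, 0.899 and 0.837 after LPS (log2 difference -0.53, exact p = 0.1, adjusted 0.133). Lilrb4a shares 38.8% of its 31-base words with Lilrb4b, so this division too is uncertain. For Sirpa over the summed Sirpb1 genes, the activating SIRP receptors that signal with DAP12, the ratio was 5.95, 1.91 and 0.749 untreated and 2.44, 2.62 and 1.40 after LPS. These overlapped, with a log2 difference of 0.07 (exact p = 1.0), and the untreated samples alone spanned the whole range.

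The order of the levels was set by Lilrb4a and Siglece. In the untreated samples Lilrb4a (lowest 218) was above all values of Siglece (highest 174), and Siglece, Cd300ld, Pirb, Cd33, Cd300lf, Cd300a, Cd300lb and Sirpa followed by their means. Neighbours in this order overlapped, except that all values of Cd33 (lowest 31.2) were above those of Cd300lf (highest 25.2). After LPS Lilrb4a and Siglece overlapped each other, both lay above all values of Pirb (highest 81.8), and Pirb, Cd300lf, Cd300a, Cd33, Cd300ld, Sirpa and Cd300lb followed, again overlapping each with the next. Cd300ld thus moved from the third place to the seventh. These values appear to be means over the transcripts of a gene, which lowers genes with many annotated transcripts such as Sirpa (60) relative to genes with few such as Cd300ld (1).

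LPS replicate 2 was the highest of the 3 LPS samples for 9 of the 9 receptors, whereas it was the highest for 47.8% of the genes with a mean of at least 5. Untreated replicate 2 was the highest of its group for 6 of 9, against 36.7% of those genes. On an equal protein-coding sum the counts were 6 and 5 of 9, and the protein-coding share was highest in LPS replicate 2 among all samples (59.99%). On that scale Cd300ld, Cd300lb and Cd33, the 3 receptors without an ITIM, had all LPS samples under all untreated samples, and 0 of the 9 were apart and higher, against 27.0% and 12.9% of the genes with a mean of at least 5. Cd300lb was then at 32.4, 18.2 and 27.8 untreated and 7.87, 16.0 and 9.91 after LPS. Cd33 was at 41.4, 50.1 and 42.3 untreated and 21.2, 26.6 and 21.2 after LPS. Neither reached an adjusted p of 0.05 on that scale in limma.

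Among the wider families, the CD300 list held 12 genes, all in the table and above 0, of which 0 were called at the limits and 1, Cd300ld3, was higher at an adjusted p under 0.05. By that adjusted p 0.894% of all genes tested were higher, and 2.97% of those with a mean of at least 5. Cd300ld3 was near 0 in the untreated samples (0.127, 0 and 0) and at 2.35, 4.22 and 2.62 after LPS, with a log2 fold change of 1.94 (SE 0.32, adjusted p = 0.0493 in limma). That call sat at the threshold, and leaving out any 1 of the 6 samples took it to an adjusted p between 0.0696 and 0.188, and an equal protein-coding sum to 0.0528. The CD300 list's median log2 fold change was 0.05, against 0.01 over all genes tested.

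In the PIR and LILR list, 10 of 14 genes were in the table and 9 above 0, and 0 passed either rule, but the median log2 fold change was 1.602 and 4 genes had all LPS samples above all untreated ones, against 13.1% of all genes tested and 21.1% of the genes with a mean of at least 5. Those 4, named after their values were seen, were Pira12, Lilra6, Lilr4b and Lair1. Lilra6, an activating relative of Pirb, had 11.2, 7.52 and 7.64 untreated and 25.9, 58.7 and 31.5 after LPS (log2 fold change 1.95, adjusted p = 0.0727 in limma). Lilr4b had 244, 286 and 156 untreated and 490, 615 and 413 after LPS, with a log2 fold change of 1.17 and an adjusted p of 0.156. Pira12 had 9.40, 37.2 and 27.9 untreated and 54.6, 150 and 62.8 after LPS, with an adjusted p of 0.215. Lair1, an inhibitory collagen receptor with 2 ITIM matches, was low in both groups, at 0.157, 0.207 and 0.847 untreated and 3.01, 3.77 and 2.78 after LPS (adjusted p = 0.0765). None of the 4 changed sign on an equal protein-coding sum, where their log2 fold changes were 1.37 (Pira12), 1.49 (Lilra6), 0.68 (Lilr4b) and 1.35 (Lair1).

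In the Siglec list 8 of 9 genes were in the table and 0 passed either rule, with a median log2 fold change of -0.07. Apart from Cd33 and Siglece its genes were low. Siglecf, the eosinophil Siglec, was at 0.0848 to 0.147 untreated and 0.138 to 0.264 after LPS, and Cd22, the B cell Siglec, at 0.304 to 8.01 and 0.600 to 1.05. In the SIRP list 4 of 6 genes were in the table and 0 passed either rule, with a median of 0.08, and the ligand gene Cd47 was not analysed here.

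**Figure D4:**
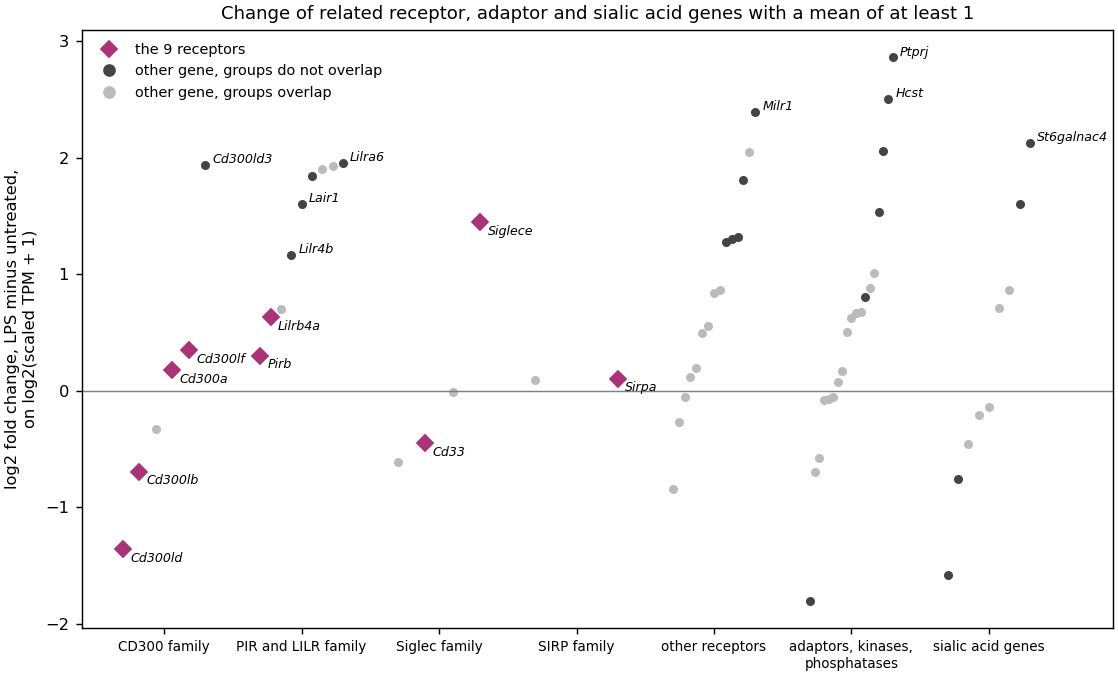
log2 fold change (LPS minus untreated, log2(scaled TPM + 1)) of the genes with a mean of at least 1 in 7 lists of related receptors, adaptors and sialic acid genes, ordered within each list. Diamonds are the 9 receptors, dark points are genes whose groups do not overlap, and Ptprj, Hcst, Milr1 and St6galnac4 are the genes beyond the limits of the study, with St6galnac4 no longer beyond them on an equal protein-coding sum.

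Of the 25 other inhibitory or paired receptors listed, 15 were in the table, 1 was called higher and 0 lower. Called higher were 1.69% of all genes tested and 6.58% of those with a mean of at least 5. The 1 was Milr1 (allergin-1), an ITIM receptor of mast cells and myeloid cells, at 0.158, 1.62 and 0.724 untreated and 5.01, 15.3 and 6.73 after LPS. Its log2 fold change was 2.39 (SE 0.52, adjusted p = 0.0824 in limma). Without untreated replicate 1 or 3, or LPS replicate 2 or 3, Milr1 no longer met the limits, with a log2 fold change between 1.97 and 2.51 and an adjusted p between 0.133 and 0.240 in limma.

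The proteins that carry the signal of these receptors gave 2 higher and 0 lower calls at the limits among the 21 of 25 listed genes in the table, and 0 at an adjusted p under 0.05. The shares called higher were 1.69% of all genes tested and 6.58% of the genes with a mean of at least 5. Ptprj, the receptor phosphatase CD148, was at 3.53, 5.35 and 16.999 untreated and 53.2, 64.5 and 55.1 after LPS (log2 fold change 2.86, adjusted p = 0.0642 in limma). Hcst, which encodes the activating adaptor DAP10, was at 0.890, 2.52 and 3.02 untreated and 10.9, 22.8 and 16.3 after LPS (log2 fold change 2.505, adjusted p = 0.0536). The groups of both genes did not overlap, and both met the limits without any 1 of the samples and on an equal protein-coding sum. In this list 5 genes were apart and higher (Hcst, Syk, Ptpn11, Grb2 and Ptprj) and 1 was apart and lower (Dok3). The shares were 13.1% and 9.75% of all genes tested, and 21.1% and 20.4% of those with a mean of at least 5. Syk, Grb2 and Dok3 were named after their values were seen, and none of them was called.

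Ptpn6, Ptpn11, Tyrobp and Fcer1g, chosen here for their direct role with the ITIM and the short-tailed receptors and with values known, were not called. Ptpn6 (SHP-1) was at 20.4, 48.4 and 27.1 untreated and 37.3, 72.1 and 38.2 after LPS, with a log2 fold change of 0.63 (adjusted p = 0.551 in limma). Ptpn11 (SHP-2) was at 1.21, 11.0 and 4.11 untreated and 13.2, 17.9 and 11.2 after LPS, where the LPS samples were all higher and the adjusted p was 0.307. The adaptors had a higher scaled TPM than any of the 9 receptors in every sample. Tyrobp (DAP12) ranged from 250 to 989 untreated and 546 to 999 after LPS, and Fcer1g from 539 to 754 and 721 to 1277, with log2 fold changes of 0.17 and 0.51.

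The enzymes that build, attach and remove sialic acids, which the Siglecs bind, gave 1 call, higher, among the 17 of 21 listed genes in the table. At the limits 1.69% of all genes tested and 6.58% of those with a mean of at least 5 were called higher. St6galnac4, a sialyltransferase, was at 1.22, 0.746 and 2.59 untreated and 8.33, 8.80 and 11.8 after LPS (log2 fold change 2.13, SE 0.38, adjusted p = 0.0542 in limma). St6galnac4 no longer reached the limits without untreated replicate 2 (1.899), without LPS replicate 3 (1.99) or on an equal protein-coding sum (1.76). The median of the list was -0.13, with 3 genes apart and higher and 4 apart and lower, against 13.1% and 9.75% of all genes tested and 21.1% and 20.4% of those with a mean of at least 5. Of the protein ligands of these receptors, 11 of 14 were in the table, 0 were called, and the median was 0.02.

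Markers of the cells that a peritoneal lavage can hold were summed per sample, with 12 of 15 neutrophil markers in the table. Neutrophil markers summed to 10346 to 30104 untreated and 18145 to 57443 after LPS. In this list 1 gene was called lower at the limits, against 1.31% of all genes tested and 6.49% of those with a mean of at least 5. It was Cxcr2, the receptor for CXC chemokines, with 39.4, 120 and 100 untreated and 7.10, 23.6 and 8.69 after LPS (log2 fold change -2.67, adjusted p = 0.0944 in limma). Without untreated replicate 2 or 3, or LPS replicate 1 or 3, Cxcr2 missed the limits on its p (0.0172, 0.0186, 0.0196 and 0.0203). S100a8 and S100a9, the defining neutrophil transcripts, were between 2086 and 28393 in every sample and made up most of the neutrophil sum. The neutrophil list went both ways, with Clec4d apart and higher after LPS and Csf3r, Cxcr2, Ltf and Il1r2 apart and lower. Of these, all but Cxcr2 were named after their values were seen. The median log2 fold change of the list was -0.30.

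Macrophage and monocyte markers, whose cells also carry most of these receptors, summed to 187 to 296 untreated and 328 to 446 after LPS (14 of 16 in the table). In this list 1 gene was called higher at the limits, against 1.69% of all genes tested and 6.58% of those with a mean of at least 5. C1qb, a complement gene of resident macrophages, was called higher, with 2.85, 0.712 and 4.75 untreated and 23.9, 17.3 and 18.05 after LPS (log2 fold change 2.62, adjusted p = 0.0642 in limma). Without LPS replicate 1 the p of C1qb was 0.0103, and 0.0105 on an equal protein-coding sum, each just outside the limit. The macrophage and monocyte list went both ways, with C1qb and Cd68 apart and higher after LPS and Mrc1, Ccr2 and Cx3cr1 apart and lower, all named after their values were seen except C1qb. Their log2 fold changes were 0.84 for Cd68, -0.62 for Mrc1, -1.46 for Ccr2 and -0.58 for Cx3cr1, and none of these 4 was called. The sums were 3.10 to 8.52 untreated and 2.02 to 5.31 after LPS for eosinophil markers (5 of 8), 25.7 to 85.1 and 83.1 to 132 for mast cell and basophil markers (4 of 8), 143 to 551 and 67.8 to 239 for B cell markers (6 of 7), 14.98 to 19.4 and 6.31 to 14.4 for T and NK cell markers (9 of 9), and 17.4 to 63.7 and 69.4 to 181 for dendritic cell markers (7 of 7). The macrophage and dendritic cell sums did not overlap between the groups, being higher after LPS. The T and NK cell sum did not overlap either, being lower after LPS. Few genes carried the macrophage and dendritic cell sums. Cd68 made up most of the macrophage sum, with 157 to 179 untreated and 230 to 381 after LPS. Ccr7 (2.24 to 27.1 and 33.5 to 125) and Itgax (13.8 to 32.4 and 34.1 to 63.8) made up most of the dendritic cell sum, while Siglech was under 1 in every sample and apart and lower after LPS. The part of these cells in the receptor values was not tested. Epx, a defining eosinophil marker, was listed at 0 in every sample, and Cd163 of macrophages was at most 0.141.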

How the data were processed

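RNA was sequenced as paired-end reads from stranded mRNA libraries of 3 untreated and 3 LPS-treated cGAS-/- neutrophil samples. The authors aligned with STAR (GRCm39), obtained transcript abundance from Kallisto, and used edgeR for the normalization. The submitters' processing notes also name fastp and the mm10 build. The deposited table holds 1 TPM-like value per gene and sample (scaled TPM), with no counts, so depth is unknown. In untreated sample 3, 62.0% of 677 low values tested returned to 5 decimals when multiplied by a small whole number, as means over transcripts would, against 0.6% of 2862 in untreated sample 1. The last 21740 of the rows hold at most 7 digits. Some listed genes, among them Cd47, Trem1, Adgre1 and Ly6g, were not found in the table by symbol. Sums, shares and background counts therefore cover the genes in the table and not every mouse gene.

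Genes above 0 in at least 1 sample (23049) were tested on log2(value + 1), so that fold changes of low genes are understated, with limma 3.58.1 in R 4.3.3 (two-sided, empirical Bayes with a trend, Benjamini-Hochberg adjustment over all genes tested), and ratios with exact permutation tests (scipy 1.17.1). The fit was checked on simulated data. Gene types, positions, coding sequences and the 31-base words came from GENCODE M39, which gave a type to 36582 genes; RefSeq types were used for 1775 and 382 had none. The membrane span was taken as the most hydrophobic window of 19 residues after residue 60 with a mean Kyte-Doolittle value of at least 1.6, in the longest consensus coding transcript. The receptors and the gene lists were chosen with earlier results of these data known. Named genes were the 9 receptors, Cgas, and up to 3 genes per list, those called at the limits with groups apart and the largest change, then those at an adjusted p under 0.05; others are said to be chosen after their values were seen. Alternatives were other pseudocounts (0.1 and 5), filters, scalings, no trend, a replicate block and leaving out each sample; the equal protein-coding sum with the block and the 36 ratios with their background over all gene pairs were added after seeing the data. A gene of the signalling list is not reported here and stands outside its counts.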

Additional observations from a re-analysis of the deposited data

How the results depend on the processing

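Under each of the 16 alternatives, 0 of the 9 receptors was called at the limits or at an adjusted p under 0.05 in limma, in either direction. Siglece, Lilrb4a, Cd300lb, Cd300ld and Cd33 kept their sign in all 16, with log2 fold changes of 0.96 to 1.95, 0.14 to 0.94, -1.16 to -0.42, -1.84 to -1.08 and -0.93 to -0.25, and adjusted p-values of 0.106 to 0.521 for Siglece and 0.0802 to 0.491 for Cd300ld. The other four changed sign on an equal protein-coding sum, with and without the replicate block: Cd300a to -0.30, Cd300lf to -0.13, Pirb to -0.18 and Sirpa to -0.36. That scaling also took the calls over all genes at the limits from 389 higher and 301 lower to 221 and 516. Leaving out 1 sample turned Cd300a to -0.06 (untreated replicate 1) and -0.29 (LPS replicate 2, range up to 0.59), Pirb to -0.27 and -0.22 (the same samples, range up to 0.91), and Sirpa to -0.30 (untreated replicate 3) and -0.03 (LPS replicate 2, range up to 0.55). The log2 difference of Sirpa over the Sirpb1 genes ran up to 0.71 without untreated replicate 1 and turned to -0.57 without untreated replicate 3, -0.04 without LPS replicate 1 and -0.09 without LPS replicate 2. The other 3 ratios kept their direction under both other pseudocounts and without each sample. Whether the replicate numbers pair the samples is not known. The correlations of same-numbered samples' deviations were 0.102, 0.220 and 0.0925, and were not compared with those of other sample pairs, so they do not settle it. The replicate block took the SE of Siglece from 0.57 to 0.25 and of Pirb from 0.74 to 0.30. It raised the SE of Cd300lb from 0.43 to 0.47 and of Cd300lf from 0.339 to 0.342. With the block Siglece had an adjusted p of 0.132 and Cd300ld of 0.242 in limma. Calls over all genes at an adjusted p under 0.05 fell from 206 higher and 218 lower to 1 and 15. Such calls depended on the method too: 687 and 611 without a trend, 557 and 483 with a filter at a mean of 1, and 1 and 10 without LPS replicate 1. With a pseudocount of 5, which shrinks fold changes by construction, Hcst, Milr1, St6galnac4 and C1qb fell inside the fold limit (1.58, 1.20, 1.17 and 1.697). With no counts deposited, the counting error of the low genes is unknown.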
